A study of Schizosaccharomyces pombe with 8 samples.

Results

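The genes described here encode the enzymes of de novo purine synthesis in fission yeast, Schizosaccharomyces pombe. They are 10 of the 7022 gene rows of the deposited expression table and were taken by their systematic identifiers, together with the 6 intron rows, of 5361, whose host is one of them. Of the 10 genes, 9 carry an ade symbol in the reference annotation. The remaining one, SPBC839.16, is annotated as thf1, the C1-tetrahydrofolate synthase that makes the folate cofactor of purine synthesis. The gene annotated as ade9 is another row, SPBC2G2.08, and is described below with the genes of one-carbon supply.

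De novo purine synthesis builds the purine ring step by step on phosphoribosyl pyrophosphate (PRPP), beginning with the amidophosphoribosyltransferase Ade4 and ending at inosine monophosphate (IMP). IMP is then turned into AMP, through Ade2 and Ade8, or into GMP. Formyl groups for the ring come from the folate pool, and cells can also take up adenine and convert it directly to nucleotides by salvage. In fission yeast the ade genes are classical markers, because mutants in them need adenine in the medium and some accumulate a red pigment.

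The study compared the polyadenylated transcriptome of cwf10-ΔNTE cells with that of wild-type cells, and with it the removal of introns. Cwf10 is the fission yeast counterpart of Snu114, a GTPase of the spliceosome. The cwf10-ΔNTE libraries came from strain OHI408, which lacks residues 2 to 127 of Cwf10 and is labelled ade6-M21X leu1-32 ura4-D18. The wild-type libraries came from strain OHI246, which has an intact cwf10 and is labelled ade6-M210 leu1-32 ura4-D18. Both are h- strains grown at 25 °C in yeast extract medium, with 2 libraries each. Every library therefore comes from cells with a mutant allele of ade6, a gene of the pathway itself, and the allele is written differently for the strains. Each genotype is 1 strain, so the deletion and any other difference between the strains cannot be told apart. The labels call the libraries of a strain biological repeats and also say that they were grown together and processed separately. All p-values below therefore rest on the spread between libraries of 1 culture occasion, and that spread may be technical.

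Gene rows held 36186264 and 42593150 reads in the cwf10-ΔNTE libraries and 40857033 and 42802817 in the wild-type libraries. Exon-exon reads over cwf10 intron 1, which lies in the deleted part, numbered 0 and 0 in cwf10-ΔNTE and 98 and 85 in wild type. The ura4 row held 0 reads in all 4 libraries, and ura4-D18 is a deletion of that gene. The values below are shares of each library's reads, so the amount of RNA per cell was not measured.

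The 6 introns lie in 4 of the genes, ade4, ade1, ade2 and thf1. All 6 are in the reference annotation. Their ends are shown because the measurements at these introns carry most of the splicing result. They are read from the reference genome (build ASM294v3) and are given 5′ to 3′ on the transcript strand. On chromosome I the last gene or intron row of the deposited table ends at 5579133, the length of that chromosome in the build. On chromosome II the last such row ends at 4532899, short of the build's 4539804. Capitals mark the first 6 bases and a branch-point-like motif near the 3′ end. That motif was searched for as CTNAC, then CTNAT, then TTNAC, on the transcript strand only, among the last 40 bases without the last 5. The introns of ade4 and ade1 separate the 5′ untranslated region from the first coding exon, and the other 4 lie between coding exons.
ade4 intron, chrI:5365965-5366339, minus strand, first 20 bases: GTAAGTtaatatagatattg
ade4 intron, last 30 bases: attcacaaccgaagctCTAACaagttttag
ade1 intron, chrII:3140641-3140700, plus strand, first 20 bases: GTAAGTtttaagtcactatt
ade1 intron, last 30 bases: agtgtgttagataCTAACttgcaatggtag
ade2 intron 1, chrI:4654728-4654766, plus strand, whole: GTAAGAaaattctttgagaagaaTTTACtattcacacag
ade2 intron 2, chrI:4654864-4655246, plus strand, first 20 bases: GTATGTtacaaaagctttat
ade2 intron 2, last 30 bases: ttcaaatatatagCTAACttttatttttag
thf1 intron 1, chrII:628065-628114, plus strand, whole: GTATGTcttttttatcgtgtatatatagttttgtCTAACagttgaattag
thf1 intron 2, chrII:628260-628537, plus strand, first 20 bases: GTATGAgtgaaggcggagaa
thf1 intron 2, last 30 bases: aaatccatgcattattttCTAACtgtttag

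These introns differ mainly in length. The ade4 intron has 375 bases, ade2 intron 2 has 383 and thf1 intron 2 has 278, against a median of 56 over 5353 distinct introns of the table. The ade4 intron and ade2 intron 2 are each longer than 98.8% of them. The ade2 intron 1, with 39 bases, is longer than only 4.97%. The start GTAAGT of ade4 and ade1 opens 27.1% of all introns, and the GTATGT of ade2 intron 2 and thf1 intron 1 opens 19.4%. The starts GTAAGA of ade2 intron 1 and GTATGA of thf1 intron 2 are rarer, at 6.54% and 4.88%. CTAAC was found in 5 of the 6 introns and in 43.5% of all introns. In ade2 intron 1 only TTNAC was found, as in 14.7% of all introns, and for 5.72% none of these letters were found in the window.

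Purine synthesis genes moved in both directions. In cwf10-ΔNTE, thf1, ade7, ade6 and ade3 rose and ade2, ade4, ade1 and ade5 fell, while ade8 and ade10 were not called (edgeR quasi-likelihood test with BH-adjusted p over 6536 gene rows, threshold 0.05). These 8 calls among 10 genes stand beside a background of 78.1% of all tested genes called, 39.6% higher and 38.5% lower. The median log2 change was -0.003 over the 10 genes and 0.01 over all tested genes. In 10 of the 10 genes the libraries of the strains did not overlap, which held for 88.7% of all tested genes. With library totals in place of TMM scaling, 5 of the genes were called higher and 3 lower, beside 49.7% and 28.7% of all genes, and the higher share of all calls was 63.4% instead of 50.6%. The 4 genes with introns had a median log2 change of -0.47, with 1 higher and 3 lower. The 6 without introns had a median of 0.05, with 3 higher, 1 lower and 2 not called. Over all tested genes the medians were -0.01 for 2500 with introns and 0.02 for 4036 without.

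**Figure D1:**
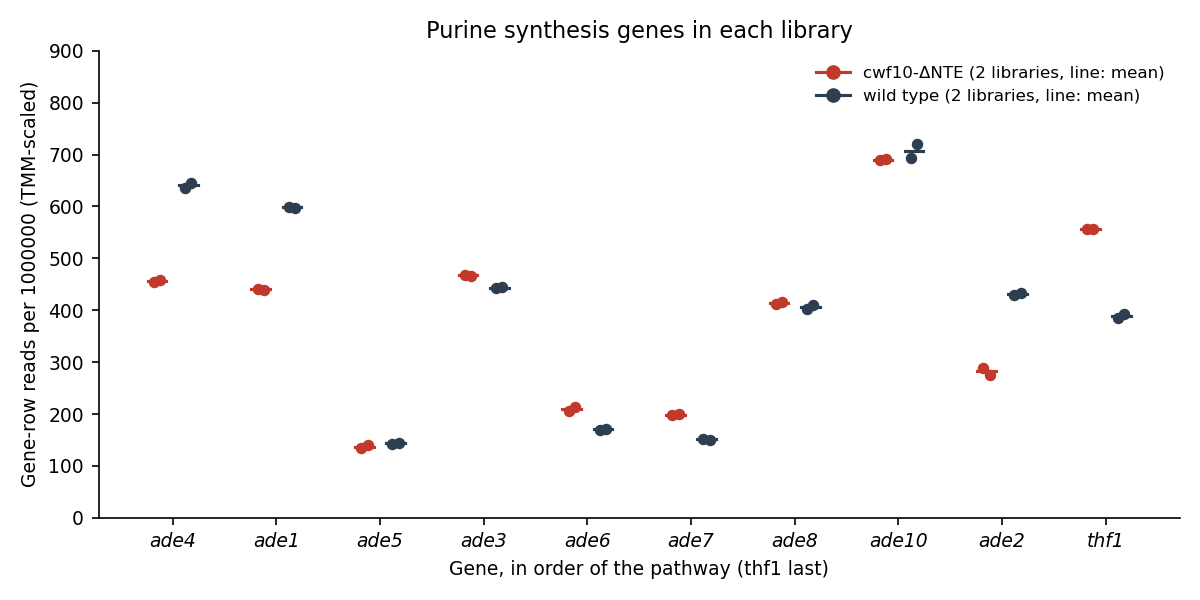
Gene-row reads per 1000000 library reads (TMM-scaled) of the purine synthesis genes, in pathway order with thf1 last; each point is a library, lines are means, and cwf10-ΔNTE stands left of wild type. The cwf10-ΔNTE points lie below wild type by over 100 in ade4, ade1 and ade2 and above by over 100 in thf1, while those of ade5, ade3, ade8 and ade10 lie close to wild type.

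The gene row of the first enzyme of the pathway fell. ade4 (SPAC4D7.08c, chromosome I, 5363988 to 5366539, minus strand) had 454.3 and 458.4 CPM, reads per 1000000 library reads, in the cwf10-ΔNTE libraries, against 635.3 and 645.9 CPM in the wild-type libraries. Its log2 change was -0.49 ± 0.0241 (SE; edgeR adjusted p = 2.48e-16), with both cwf10-ΔNTE libraries far below both wild-type ones. ade1 (SPBC405.01, chromosome II, 3140566 to 3143304, plus strand) encodes the bifunctional enzyme that makes glycinamide ribonucleotide and later closes the imidazole ring. It had 441.5 and 438.8 CPM in cwf10-ΔNTE, against 598.9 and 597.1 CPM in wild type. The log2 change was -0.44 ± 0.0237 (edgeR adjusted p = 1.54e-15), and the libraries of a strain differed by under 3 CPM. Both genes carry an intron in front of the first coding exon.

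The gene rows of the formyl transfer and amidation steps between these activities hardly moved. ade5 (SPCC569.08c, chromosome III, 2412325 to 2413970), the glycinamide ribonucleotide formyltransferase, had 134.7 and 139.8 CPM in cwf10-ΔNTE, against 143.1 and 144.7 CPM in wild type. Its log2 change was -0.07 ± 0.0242 (edgeR adjusted p = 0.0142), but 0.01 (adjusted p = 0.646) with library totals only, and the call was also lost with DESeq2 (adjusted p = 0.0826). The ade5 call was lost as well without cwf10-ΔNTE replicate 1 (log2 change -0.04, adjusted p = 0.118) and without wild-type replicate 2 (-0.06, adjusted p = 0.105). ade3 (SPAC6F12.10c, chromosome I, 1329091 to 1333409), the phosphoribosylformylglycinamidine synthase, had 468.2 and 466.3 CPM in cwf10-ΔNTE, against 443.1 and 444.4 CPM in wild type. The log2 change was 0.07 ± 0.0232 (edgeR adjusted p = 0.00518), and its sign is the opposite in the authors' deposited table, at -0.07 (adjusted p = 0.0458). Of the ade3 row, 21.3% is covered by the antisense row SPNCRNA.734, which rose by 0.17 (log2). The sources used here do not say that counting used strand, so reads of a gene and its antisense partner cannot be told apart.

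Gene-row reads rose for the carboxylation and aspartate addition steps, with limits given below for both genes. ade6 (SPCC1322.13, chromosome III, 1316243 to 1318070), the phosphoribosylaminoimidazole carboxylase, had 205.5 and 214.1 CPM in cwf10-ΔNTE, against 168.9 and 171.8 CPM in wild type. Its log2 change was 0.30 ± 0.0234 (edgeR adjusted p = 4.69e-12), a mean 23.2% higher. No other gene row overlaps ade6. The ade6 allele differs between the strains by label, so its level cannot be told apart from an effect of the allele. ade7 (SPBC409.10, chromosome II, 1157104 to 1158424), the SAICAR synthetase of the next step, had 197.8 and 199.2 CPM in cwf10-ΔNTE, against 152.8 and 150.1 CPM in wild type, with a log2 change of 0.39 ± 0.0223 (edgeR adjusted p = 6.58e-15). The antisense row SPNCRNA.568 covers 92.7% of the ade7 row and had almost as many reads, 191.4 ± 1.17 CPM in cwf10-ΔNTE and 145.6 ± 1.57 CPM in wild type (SD, n = 2 each), with the same log2 change of 0.39. Neither row can therefore be assigned the change alone.

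The gene rows of the late steps up to IMP, and of the lyase shared with the AMP branch, were not called. ade8 (SPBC14F5.09c, chromosome II, 4172822 to 4175534), the adenylosuccinate lyase, had 411.7 and 416.3 CPM in cwf10-ΔNTE, against 401.6 and 409.8 CPM in wild type, with a log2 change of 0.03 ± 0.0234 (edgeR adjusted p = 0.25). With library totals only the ade8 value was 0.11 (adjusted p = 3.47e-05). The whole ade8 row lies inside the antisense row of med7, a Mediator subunit gene, whose log2 change was 0.02 (adjusted p = 0.497). ade10 (SPCPB16A4.03c, chromosome III, 947597 to 949685), which encodes the AICAR transformylase and IMP cyclohydrolase, had 689.2 and 691.0 CPM in cwf10-ΔNTE, against 693.5 and 719.9 CPM in wild type. Its log2 change was -0.03 ± 0.0256 (edgeR adjusted p = 0.217), and 0.05 (adjusted p = 0.0692) with library totals only. The wild-type libraries of ade10 lay further apart from each other than the nearest pair between the strains.

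ade2 and thf1 were at the extremes of the set. ade2 (SPAC144.03, chromosome I, 4654662 to 4656456, plus strand), the adenylosuccinate synthetase that commits IMP to AMP, had 289.1 and 275.5 CPM in cwf10-ΔNTE, against 430.1 and 433.3 CPM in wild type. Its log2 change was -0.61 ± 0.0245 (edgeR adjusted p = 2.59e-18), so the mean fell by 34.6%. The antisense row SPNCRNA.1011 covers 33.0% of the ade2 row and both ade2 introns, and its own log2 change was -0.32. thf1 (chromosome II, 627934 to 631710, plus strand) had 557.4 and 557.4 CPM in cwf10-ΔNTE, against 384.7 and 392.4 CPM in wild type. The log2 change was 0.52 ± 0.0237 (edgeR adjusted p = 4.58e-17), a mean 43.5% higher, and 0.371% of its row is shared with another, fkh1, whose log2 change was -0.32. ade2 and thf1 are the genes here with a pair of introns each, and they moved in opposite directions.

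Other overlaps with the purine synthesis rows were small. csi2 shares 3.84% of the ade4 row and had a log2 change of 0.15, SPCC569.09 shares 4.01% of the ade5 row with 0.33, and sfc1 shares 1.46% of the ade3 row with -0.34. SPBC14F5.10c shares 2.32% of the ade8 row with -0.14, and SPBC405.02c shares 0.183% of the ade1 row with -0.04, which was not called. These are gene-level log2 changes of the overlapping rows.

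Per kilobase of exon, ade10 was the highest of the 10 genes in both strains, at 330.3 ± 0.609 CPM per kb in cwf10-ΔNTE and 338.3 ± 8.93 in wild type (SD, n = 2 each). ade5 was the lowest in both, at 83.4 ± 2.2 CPM per kb in cwf10-ΔNTE and 87.4 ± 0.691 in wild type. In cwf10-ΔNTE the order in between was ade4, ade2, ade1, thf1, ade8, ade7, ade6 and ade3. ade4 (209.6 ± 1.32 CPM per kb) and ade2 (205.6 ± 7.0) did not differ beyond their spread there. In wild type the order was ade2, ade4, ade1, ade8, ade7, thf1, ade3 and ade6, and ade7 (114.7 ± 1.47) and thf1 (112.7 ± 1.58) did not differ beyond their spread. thf1 stood below ade8 in wild type and above it in cwf10-ΔNTE. The levels of ade7 and ade8 include any reads of their antisense rows.

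The authors' deposited table gives lower log2 changes for these genes throughout, at -0.75 for ade2, -0.63 for ade4, -0.58 for ade1, 0.16 for ade6, 0.25 for ade7 and 0.38 for thf1. Over 6534 genes the values computed here exceeded the authors' deposited ones by a median of 0.14 on the log2 scale. In the authors' deposited table ade8 is at -0.11 with an adjusted p of 0.000427, where the value here is 0.03 and not called. It also gives ade10 at -0.18 (adjusted p = 1.26e-06) and ade5 at -0.21 (adjusted p = 7.73e-08).

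Intron retention is measured here as intron reads relative to the host gene's reads, and it rose in cwf10-ΔNTE for 5 of the 6 introns, beside 47.1% of 5038 tested introns (edgeR, BH-adjusted). None of the 6 was called lower, beside 0.298% of tested introns. The median log2 change was 1.07 over the 6 introns and 0.81 over all tested ones. The exception was thf1 intron 1. Both cwf10-ΔNTE libraries lay above both wild-type libraries in those 5 introns, which was the case for 71.2% of all tested introns.

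**Figure D2:**
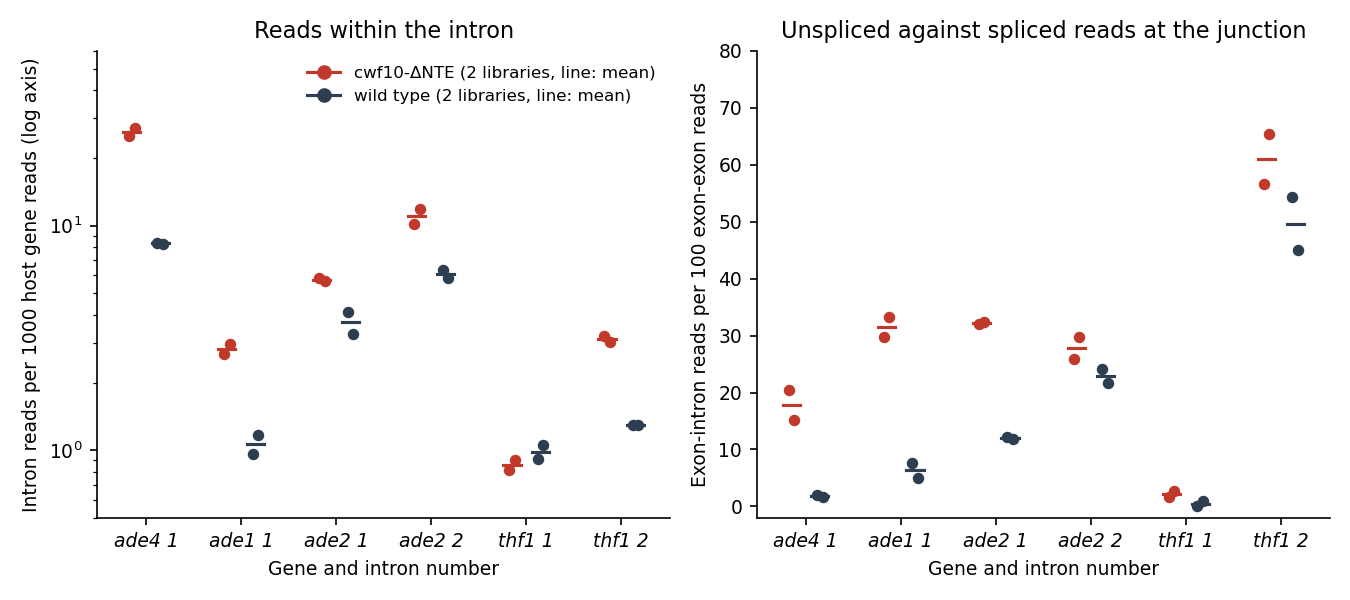
Left, intron reads per 1000 reads of the host gene (log axis), and right, exon-intron reads per 100 exon-exon reads, for the 6 introns; each point is a library, lines are means, and cwf10-ΔNTE stands left of wild type. On the left the cwf10-ΔNTE points lie above wild type except in thf1 intron 1; on the right they do so in all 6 introns, by the widest ratio in ade4.

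The ade4 intron showed the strongest change by the number of reads behind it. It held 425 and 543 reads in the cwf10-ΔNTE libraries, against 213 and 222 in the wild-type libraries. Relative to host reads this was 25.1 and 27.1 per 1000 in cwf10-ΔNTE, against 8.39 and 8.30 per 1000 in wild type. The strains stood well apart, and retention rose by 1.65 ± 0.0868 on the log2 scale (edgeR adjusted p = 2.71e-14), or 3.13-fold, more than in 84.3% of tested introns. Per base, the intron had 15.2% ± 0.79 of the exon coverage in cwf10-ΔNTE and 4.84% ± 0.0381 in wild type (SD, n = 2 each).

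A small nucleolar RNA gene, snoR58 (chromosome I, 5366223 to 5366297), lies inside the ade4 intron. Small nucleolar RNAs guide the modification of ribosomal RNA, and those within introns are released from the host transcript. The snoR58 row held 81 and 92 reads in cwf10-ΔNTE, against 43 and 46 in wild type. Relative to library size its log2 change was 0.96 ± 0.184 (edgeR adjusted p = 3.39e-05). On that scale the whole ade4 intron, snoR58 included, changed by 1.16 ± 0.0923 (edgeR adjusted p = 3.78e-12). The rest of the intron held 344 and 451 reads in cwf10-ΔNTE, against 170 and 176 in wild type. Without the snoR58 reads, a comparison chosen after the data were seen, ade4 retention rose by 1.69 ± 0.0961 relative to host reads (edgeR adjusted p = 1.15e-13). The change is therefore as large outside that row. Reads in the snoR58 row cannot be told apart from those of the intron around it, so the comparison does not measure snoR58 itself.

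Reads across the exon-intron boundaries of ade4 were few but moved further. There were 38 and 33 in the cwf10-ΔNTE libraries, against 6 and 5 in the wild-type libraries. The log2 change relative to host reads was 3.15 ± 0.388 (edgeR adjusted p = 2.12e-14), higher than in 98.0% of tested introns. Exon-exon reads over the same junction numbered 185 and 217 in cwf10-ΔNTE, against 297 and 287 in wild type. Relative to host reads their log2 change was -0.04 ± 0.0941 (edgeR adjusted p = 0.797). Boundary reads per 100 exon-exon reads were 20.5 and 15.2 in cwf10-ΔNTE, against 2.02 and 1.74 in wild type.

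The ade1 intron behaved like that of ade4 in unspliced reads. It held 44 and 57 reads in cwf10-ΔNTE, against 23 and 29 in wild type, or 2.68 and 2.97 per 1000 host reads in cwf10-ΔNTE, against 0.961 and 1.17 in wild type. Retention rose by 1.40 ± 0.235 (log2; edgeR adjusted p = 2.42e-05), and the strains did not overlap. Boundary reads numbered 66 and 92 in cwf10-ΔNTE, against 31 and 22 in wild type, a log2 change of 2.02 ± 0.222 relative to host reads (edgeR adjusted p = 9.57e-18). Exon-exon reads numbered 222 and 276 in cwf10-ΔNTE, against 404 and 434 in wild type, and fell by 0.30 relative to host reads (log2, SE 0.0823; edgeR adjusted p = 0.00445). That last call was lost with DESeq2 (adjusted p = 0.276), without cwf10-ΔNTE replicate 1 (0.0581) and without wild-type replicate 2 (0.0899).

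Reads within the introns of ade2, the gene that fell most, were not called relative to library size but were called relative to ade2 reads. Intron 1 held 63 and 68 reads in cwf10-ΔNTE, against 71 and 59 in wild type, and the strains overlapped. Its log2 change relative to library size was 0.02 ± 0.184 (edgeR adjusted p = 0.939). Relative to ade2 reads there were 5.86 and 5.64 per 1000 in cwf10-ΔNTE, against 4.13 and 3.29 in wild type, and retention rose by 0.63 ± 0.184 (edgeR adjusted p = 0.00651). This call was lost with DESeq2 (adjusted p = 0.12) and without cwf10-ΔNTE replicate 1 (0.0827), cwf10-ΔNTE replicate 2 (0.0716) or wild-type replicate 2 (0.0679). Boundary reads numbered 89 and 105 in cwf10-ΔNTE, against 65 and 68 in wild type, and rose by 1.16 ± 0.171 relative to host reads (edgeR adjusted p = 2.64e-10). Relative to library size the boundary reads of intron 1 rose by 0.55 ± 0.169 (edgeR adjusted p = 0.00433). Exon-exon reads numbered 277 and 325 in cwf10-ΔNTE, against 534 and 571 in wild type, a fall of 0.25 relative to host reads that was not called with DESeq2 or without cwf10-ΔNTE replicate 1, wild-type replicate 1 or wild-type replicate 2 (log2 -0.25 ± 0.0747; edgeR adjusted p = 0.00893).

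Intron 2 of ade2 held over 100 reads in every library, and its coverage per base was 3.67% and 4.28% of that of the exons in cwf10-ΔNTE, against 2.27% and 2.1% in wild type. Its retention rose by 0.87 ± 0.141 (log2; edgeR adjusted p = 1.6e-05), with 11.1 ± 1.21 reads per 1000 host reads in cwf10-ΔNTE and 6.1 ± 0.349 in wild type (SD, n = 2 each). Relative to library size the change was 0.25 ± 0.14 (edgeR adjusted p = 0.133), and that of its boundary reads was -0.37 ± 0.117 (edgeR adjusted p = 0.00485). Boundary reads of this intron, at 141 and 167 in cwf10-ΔNTE and 214 and 187 in wild type, gave 0.24 ± 0.119 relative to host reads (edgeR adjusted p = 0.117), but 0.37 (adjusted p = 0.0333) without wild-type replicate 1 and 0.12 (adjusted p = 0.599) without wild-type replicate 2. Exon-exon reads, at 546 and 563 in cwf10-ΔNTE and 884 and 866 in wild type, gave -0.04 ± 0.0616 (edgeR adjusted p = 0.741). Both introns lie under the antisense row SPNCRNA.1011, whose reads cannot be told apart from theirs.

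thf1, whose own level rose, had 1 intron with more reads and 1 without. Intron 2 held 67 and 74 reads in cwf10-ΔNTE, against 20 and 21 in wild type, or 3.23 and 3.03 per 1000 host reads in cwf10-ΔNTE, against 1.30 and 1.29 in wild type. The replicates lay close together, and retention rose by 1.26 ± 0.233 (log2; edgeR adjusted p = 8.2e-05). Its boundary reads were many in both strains, 236 and 295 in cwf10-ΔNTE and 172 and 138 in wild type, and the log2 change relative to host reads was 0.26 ± 0.112 (edgeR adjusted p = 0.0607), but 0.47 (adjusted p = 0.00416) without wild-type replicate 1 and 0.07 (adjusted p = 0.751) without wild-type replicate 2. Exon-exon reads of intron 2 gave -0.04 ± 0.0784 (edgeR adjusted p = 0.79), at 417 and 451 in cwf10-ΔNTE and 317 and 307 in wild type.

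Intron 1 of thf1 held 17 and 22 reads in cwf10-ΔNTE, against 14 and 17 in wild type. Relative to host reads this was 0.82 and 0.902 per 1000 in cwf10-ΔNTE, against 0.911 and 1.05 in wild type, a log2 change of -0.18 ± 0.342 (edgeR adjusted p = 0.679). With so few reads, changes smaller than a few standard errors were not detectable. Boundary reads numbered 8 and 12 in cwf10-ΔNTE, against 0 and 3 in wild type. Summed per strain and relative to host reads their ratio was 4.67 (95% exact interval 1.38 to 24.5, counting error only). The edgeR call of that difference (adjusted p = 0.0238) was lost with DESeq2 (0.344), without cwf10-ΔNTE replicate 1 (0.0931) or replicate 2 (0.217), and without wild-type replicate 1 (0.274). Exon-exon reads were 471 and 442 in cwf10-ΔNTE, against 279 and 306 in wild type, and gave 0.13 ± 0.0829 relative to host reads (edgeR adjusted p = 0.283).

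**Figure D3:**
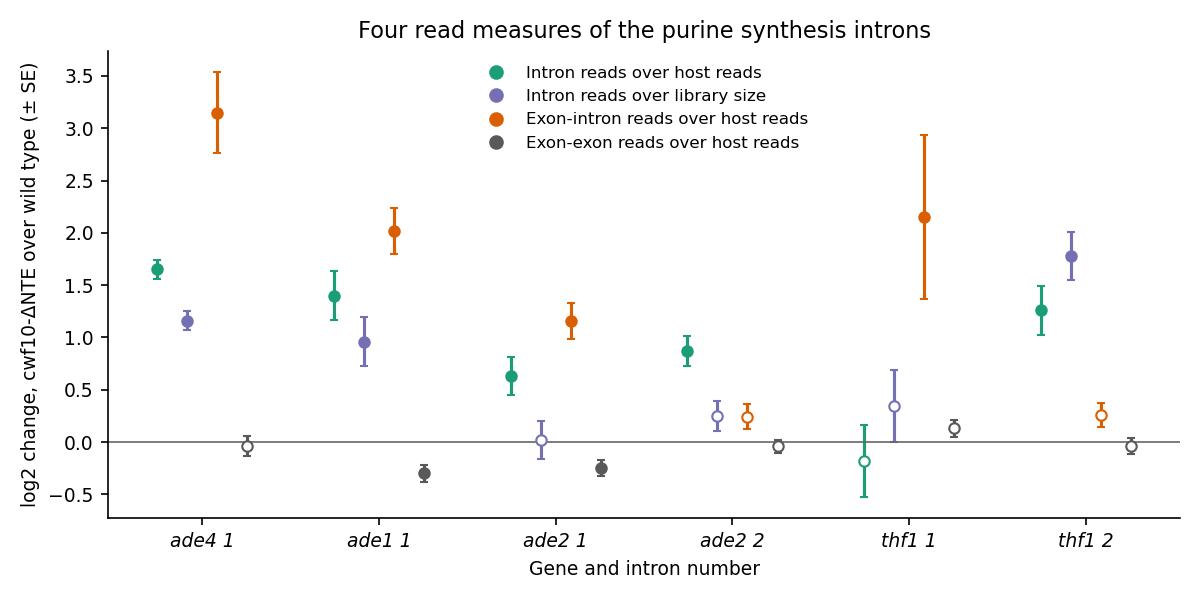
log2 change, cwf10-ΔNTE over wild type, of 4 read measures for the 6 introns; points are edgeR estimates, bars are ± SE, and filled points have a BH-adjusted p under 0.05. Boundary reads moved furthest in ade4, at 3.15, and exon-exon reads stayed within 0.30 of 0 in all 6 introns.

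Across the 6 introns the read classes gave different counts. Boundary reads relative to host reads rose in 4 introns, beside 30.1% of 5021 tested introns, with a median log2 change of 1.59 over the 6 and 0.31 over all. Exon-exon reads relative to host reads fell in 2 introns, beside 19.8% of 4861 tested introns, with a median of -0.04 over the 6 and -0.15 over all. Intron reads relative to library size rose in 3 introns, those of ade4 and ade1 and intron 2 of thf1, beside 48.9% of all tested introns, with a median of 0.65 over the 6 and 0.84 over all. In the authors' deposited table the q-value for a change in splicing efficiency, exon-exon over exon-intron reads, was 1.46e-13 for ade4 and 2.63e-14 for ade2 intron 1, and it is listed as 0 for ade1. It was 0.0577 for ade2 intron 2, 0.0533 for thf1 intron 2 and 0.0904 for thf1 intron 1 in the authors' deposited table. The ade4 intron with 375 bases and ade2 intron 2 with 383 bases are nearly alike in length, and their boundary reads changed by 3.15 and 0.24. They differ in position, in the antisense row over ade2 intron 2 and in wild-type boundary reads per 100 exon-exon reads, at 1.88 and 22.9. They also differ in their first 6 bases and in snoR58, which lies inside the ade4 intron. The wild-type libraries held 6 and 5 boundary reads for ade4, against 214 and 187 for ade2 intron 2. Whether length bears on the change was not tested.

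The lists of neighbouring pathways are read against all tested genes, of which 39.6% were called higher and 38.5% lower, with a median log2 change of 0.01. With library totals only these shares were 49.7% and 28.7%, and the median was 0.09. Of 11 genes that supply one-carbon units and folates to purine synthesis, 8 fell and 3 rose, with a median log2 change of -0.24, and with library totals only 6 were lower and 3 higher. mtd1, a methylenetetrahydrofolate dehydrogenase, had 75.8 and 74.8 CPM in cwf10-ΔNTE, against 133.9 and 134.7 CPM in wild type, and fell most of the list, by 0.84 (log2, SE 0.0258; edgeR adjusted p = 9.64e-21). ade9, like thf1 a C1-tetrahydrofolate synthase gene, had 164.5 and 167.9 CPM in cwf10-ΔNTE, against 226.2 and 232.9 CPM in wild type, a log2 change of -0.47 ± 0.0227 (edgeR adjusted p = 2.11e-16). So ade9 fell where thf1 rose, and in both the strains were well separated. met9, a methylenetetrahydrofolate reductase, had a log2 change of -0.45. The genes that rose were gcv1 of the glycine cleavage system (0.36), fol1 of folate synthesis (0.24) and dfr1, the dihydrofolate reductase (0.11).

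The single ade9 intron (chromosome II, 3449104 to 3449370, 267 bases) held 117 and 134 reads in cwf10-ΔNTE, against 40 and 40 in wild type. Relative to host reads this was 19.1 and 18.2 per 1000 in cwf10-ΔNTE, against 4.43 and 4.15 in wild type, and retention rose by 2.12 ± 0.17 (log2; edgeR adjusted p = 1.23e-10), above each of the 6 introns of the 10 genes. Its boundary reads gave 0.22 ± 0.259 (edgeR adjusted p = 0.577). All 5 tested introns of the one-carbon genes rose in retention, with a median of 1.61, beside 47.1% of all tested introns and a median of 0.81.

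Salvage and interconversion of purines held the steepest falls among these lists. Of 8 matched genes 5 fell and 3 rose, with a median log2 change of -0.07, which turned to 0.01 with library totals only, where 3 were lower and 3 higher. Over all tested genes 38.5% were lower and 39.6% higher, with a median of 0.01. With library totals only, 28.7% of all tested genes were lower and 49.7% higher, with a median of 0.09. apt1, the adenine phosphoribosyltransferase that turns adenine into AMP, had 155.9 and 149.0 CPM in cwf10-ΔNTE, against 376.2 and 376.2 CPM in wild type. Its log2 change was -1.30 ± 0.0238 (edgeR adjusted p = 8.45e-26). dea2, the adenine deaminase that leads adenine to hypoxanthine, had 88.0 and 87.4 CPM in cwf10-ΔNTE, against 186.4 and 188.0 CPM in wild type, with -1.09 ± 0.0238 (edgeR adjusted p = 3.6e-24). Both were below every gene of the de novo pathway in log2 change. hpt1, the hypoxanthine phosphoribosyltransferase, had -0.54 ± 0.022 (edgeR adjusted p = 4.5e-18). ndk1 (0.21), ado1, the adenosine kinase (0.13), and ada1 (0.09) rose. The 3 tested introns of these genes were all called higher in retention, with a median of 1.01, beside 47.1% of all tested introns and a median of 0.81.

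**Figure D4:**
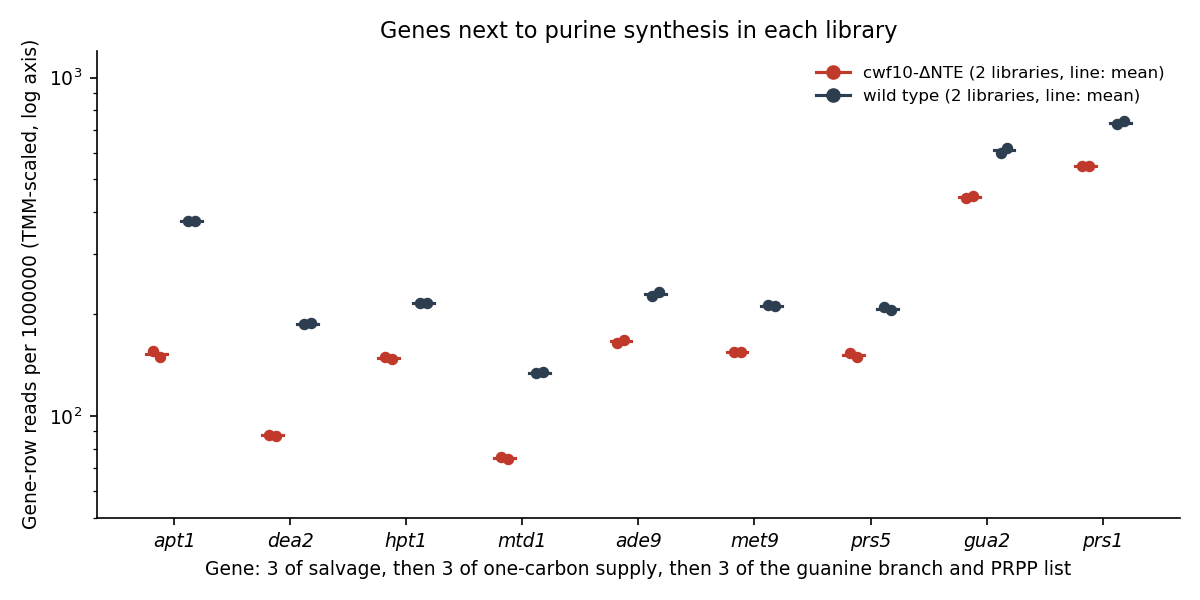
Gene-row reads per 1000000 library reads (TMM-scaled, log axis) of the genes that fell most among salvage, one-carbon supply and guanine branch and PRPP genes, 3 of each; each point is a library, lines are means, and cwf10-ΔNTE stands left of wild type. The strains are separated in all 9 genes, most widely in apt1 (152.4 against 376.2 on average).

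The guanine branch and PRPP supply fell in all 4 matched genes, or in 3 of them with library totals only, with a median log2 change of -0.44, beside 38.5% of all tested genes lower, or 28.7% with library totals only. prs5 and prs1, PRPP synthetase genes, had -0.46 ± 0.0229 (edgeR adjusted p = 3.24e-16) and -0.43 ± 0.0245 (edgeR adjusted p = 6.9e-15). gua2, the GMP synthase, had 441.7 and 446.8 CPM in cwf10-ΔNTE, against 600.2 and 620.5 CPM in wild type, and a log2 change of -0.46 ± 0.0247 (edgeR adjusted p = 1.82e-15). gua1, the IMP dehydrogenase, moved little, with -0.07 ± 0.0262 (edgeR adjusted p = 0.0223) and 0.01 with library totals only, and is named to complete the list after its value was seen. All 4 tested introns of these genes rose in retention, with a median of 1.44, beside the same 47.1% and 0.81 over all tested introns. In pyrimidine synthesis, 4 of 5 matched genes fell and ura1 was not called, with a median of -0.28, beside 38.5% of all tested genes lower and a median of 0.01, and with library totals only 3 were lower and ura1 was called higher. ura3 had -0.47, ura5 had -0.39, ura6 had -0.28 and ura2 had -0.14, or -0.06 and not called with library totals only. Of the introns of this list, 1 of 2 tested rose in retention, where 47.1% of all did.

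**Figure D5:**
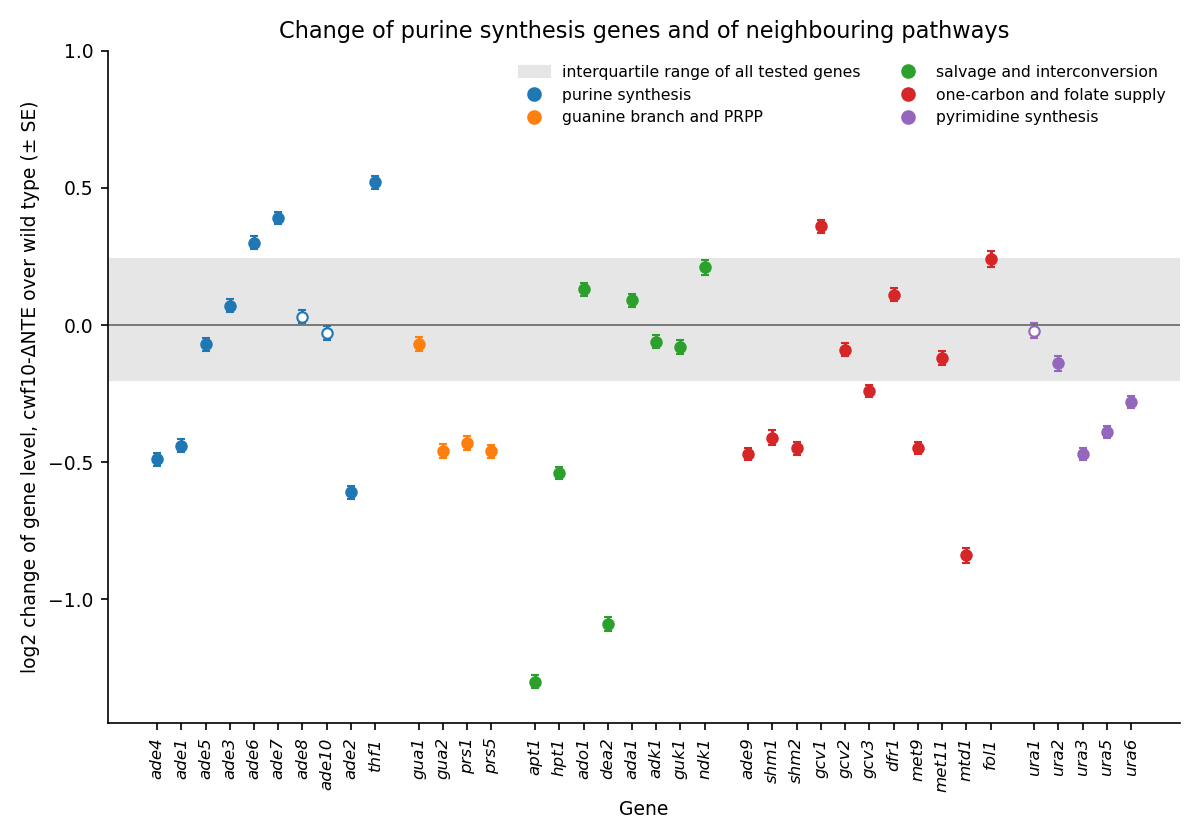
log2 change of gene level, cwf10-ΔNTE over wild type, for purine synthesis and the 4 neighbouring lists; points are edgeR estimates, bars are ± SE, filled points have a BH-adjusted p under 0.05, and the grey band is the interquartile range of all tested genes. Purine synthesis genes lie on both sides of 0, between -0.61 and 0.52, and the 4 guanine branch and PRPP genes lie below 0, gua1 at -0.07 (0.01 with library totals only).

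The gene rows whose profile over the 4 libraries lay nearest to that of ade2, the gene of the 10 with the greatest change, were hgh1, SPAC1071.09c and pdp1. The measure was the Euclidean distance between gene-centred log2 CPM values, which was 0.00982 for hgh1, 0.0159 for SPAC1071.09c and 0.0207 for pdp1. Their log2 changes were -0.62, -0.61 and -0.63. Being near the -0.61 of ade2 follows from the choice by that distance and is not a separate result.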

How the data were processed

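Poly-A RNA was sequenced in 2 cwf10-ΔNTE and 2 wild-type libraries, and only the first reads were used, per the labels. The submitters' processing notes list CASAVA 1.8.2 and Bowtie 0.12.7 but not what each was used for, and the genome build is not given in the sources used here. The authors deposited raw read counts for gene and intron rows and counts of exon-intron reads, per the file headers. Per the file headers, the authors' table further holds log2 fold changes with an adjusted p-value, and log2 splicing efficiencies with a q-value for their change. The deposited log2 splicing efficiency was solved for the exon-exon reads, which came out whole within 0.001 for all 5361 introns. Introns of the table start with GT and end with AG in the reference genome in 98.67% of cases.

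Counts were tested with edgeR 4.0.16 (quasi-likelihood, R 4.3.3) over the whole table, with BH adjustment and a threshold of 0.05. Gene rows passing filterByExpr were TMM-scaled. For intron, boundary and junction reads the offset was the log of host gene reads plus 1, the minimum was 10 reads summed over the libraries, and the host needed 50 reads in each library. Intron level used the gene libraries' effective sizes. The SE was obtained by dividing the log2 change by the square root of F. Intron rows held 251877 and 296204 reads in cwf10-ΔNTE and 174618 and 180057 in wild type. Replicates differed by more than counting noise, with a chi-square per degree of freedom of 2.94 in cwf10-ΔNTE and 2.4 in wild type, and the common biological coefficient of variation of genes was 1.49%. All fits except intron level were tested on simulated data.

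The genes and lists were chosen with earlier results of these data known. Named were the 10 genes and their introns, rows that overlap them, and from each list the 3 highest and 3 lowest called genes. For the gene with the greatest change, the 3 nearest profiles with at least 5 CPM were added. Of the lists, prs2, prs3, prs4, xpt1 and ura7 matched no row. The branch motif patterns were chosen after the sequences were seen. Alternatives were DESeq2 1.42.0, library totals, no filter, other offsets, a replicate block and each library left out.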

Additional observations from a re-analysis of the deposited data

How the results depend on the processing

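There were 236 alternative values for 28 results on single genes and introns, where each intron enters by retention, boundary reads and exon-exon reads. Of these values 197 kept direction and call, 20 lost the call, 8 gained it and 11 changed sign. The replicate block, which no label ties to a shared culture pair (same-numbered deviations correlated at 0.002), changed no call and left 4 genes higher, 4 lower and 5 introns higher in retention. With library totals only, ade5 was at 0.01 and ade10 at 0.05. With library sizes as offset, retention rose in 3 of the 6 introns and thf1 intron 1 turned to 0.34. On that offset boundary reads were higher in 5 introns and lower in 1, ade2 intron 2 at -0.37. On the same offset exon-exon reads were higher in 2 introns and lower in 4, with thf1 intron 2 at 0.48. Exon-exon calls numbered 0 with DESeq2. Leaving out each library in turn gave 0 to 2 introns lower and 0 to 1 higher in exon-exon reads. In those fits the lone library was taken to vary like the others. Exon-exon changes that turned sign with a library left out were not called with all libraries, and lay between -0.11 and 0.02 for ade4, -0.09 and 0.03 for ade2 intron 2, and -0.10 and 0.03 for thf1 intron 2. For thf1 intron 1 they ran between -0.03 and 0.30, and were called at 0.30 without cwf10-ΔNTE replicate 2. The cause of these moves was not tested.

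Over all introns, 2372 were called higher and 15 lower in retention, against 1125 and 1 with DESeq2, 1378 to 2105 higher and 2 to 18 lower with a library left out, 67 lower with library sizes and 32 lower with exon-exon offsets. Boundary reads gave 1511 higher and 32 lower, against 588 and 5 with DESeq2, 901 to 1238 higher and 13 to 31 lower with a library left out, and 245 lower with library sizes. Exon-exon reads gave 32 higher and 962 lower, against 1 and 190 with DESeq2, 289 and 1676 with library sizes, and 8 to 21 higher and 427 to 704 lower with a library left out. The higher calls rose on the other offsets too. With library sizes, 2465 introns were higher in retention and 1915 in boundary reads, and with exon-exon offsets 2561 were higher in retention. Few reads per intron limit the precision of single introns.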
